A study of Homo sapiens with 2 samples.

Results

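Stress granules are condensates of stalled mRNAs and RNA-binding proteins that form in the cytoplasm when translation initiation is blocked. The genes of 29 of their proteins were followed among 58347 genes in counts of RNA recovered with the splicing factor U2AF2. The members were listed by symbol, and all 29 had a row in the count table when identifiers without version were matched to GENCODE 29 (GRCh38). The cells were HEL, an established human erythroleukemia line, given no treatment according to the labels, and the samples formed 1 group of 2 biological replicates. One label names U2AF2 in the place of the cell line, while the source and the description name HEL. The assay was eCLIP, in which ultraviolet light fixes proteins to RNA in the cell, an antibody recovers U2AF2 with its RNA, and that RNA is sequenced. No input or control library was analysed here, so no value is an enrichment and no value is an expression level.

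Granule assembly starts from multivalent scaffold proteins. G3BP1 and G3BP2 condense with released mRNA, CAPRIN1 and UBAP2L bind G3BP and promote the process, and TIA1 and TIAL1 bring prion-like domains. USP10 competes for G3BP and limits condensation. The remaining members are mRNA-binding and translation proteins that gather in the granule. U2AF2 itself acts earlier, in the nucleus, where it contacts the pyrimidine-rich stretch upstream of the AG that ends an intron. Mutant U2AF1, the small partner of U2AF2, has been linked to stress granules, and the labels here name no mutation.

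The places where U2AF2 would be expected to touch these transcripts are shown first, because the counts below are per gene and hold no positions. The annotation gave 607 different 3' splice sites in the 29 genes. For 160 of them, in 25 genes, a GENCODE 29 transcript ran through the intron end, so that its sequence could be read, and 3 of these 160 lay within an exon of a gene on the other strand. Each line gives the last 27 intronic and first 3 exonic bases on the strand of the member, with the longest unbroken run of C and T in the intronic part in capitals. The first 4 come from the loci where an opposite-strand gene covers a 3' splice site of the member, and each is the readable site nearest to an exon of that gene. The other 6 are, for each core nucleator, the readable site of a coding transcript with the longest run. The loci were chosen after their values were seen.
ATXN2L, chr16:28836823-28836852, plus strand: agtgatctatgTCTCTTCCCCCagcagctc
PABPC4, chr1:39572584-39572613, minus strand: ttattgaaatgtgTTTCTCTCTTacagctg
FXR2, chr17:7592597-7592626, minus strand: tgactctggTTTTTTCCTaccctacagaag
ATXN2, chr12:111451188-111451217, minus strand: ttgctaTTCCTTTTTCCTacggtccagaaa
G3BP1, chr5:151786576-151786605, plus strand: ggacatatttgaCTCTTTTCCCCCCaggtt
G3BP2, chr4:75648739-75648768, minus strand: taatgTTTTTTTTTCTTTatattttagcca
CAPRIN1, chr11:34052394-34052423, plus strand: TTTCTTCTCTCTCCTTgcggtctgaagatg
UBAP2L, chr1:154259921-154259950, plus strand: tctgCTCTTTTTTCCCCTCTTTTCTaggat
TIA1, chr2:70215492-70215521, minus strand: ggtgaTTCTTaatattgttttcaataggtt
TIAL1, chr10:119578832-119578861, minus strand: tgattgtgCTTTCTTTTTTatccataggat

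These runs spanned 5 bases in TIA1 and 21 in UBAP2L, the longest among all 160 sites. Over the 160 sites the median share of C and T in the 27 intronic bases was 63.0% (range 40.7% to 88.9%), and the median longest run was 8 bases. The 45033 sites readable in the same way over all protein-coding genes had a median share of 63.0% and a median run of 7 bases. Readable sites come from annotated retained introns and from overlapping genes, and they are not a random sample of the introns.

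Reads assigned to the members' own exons were few. The 29 genes held 517 counts of 995428 gene counts in replicate 1 and 711 of 1350116 in replicate 2, which is 0.0519% and 0.0527%. A share of 97.3% to 97.4% of the uniquely mapped reads was tallied on no feature. Where counts are taken over exons, reads that lie in introns alone are outside them. A low own count therefore does not show low U2AF2 contact at a member's intron ends. How many of the reads on no feature lay in the members' introns is not known here. The printed sites lie within exons of GENCODE 29 transcripts, either of the member or of a gene opposite it. The strand on which reads were counted is not given in the sources used here, and each own count below is read with that limit. A member's count can stand for RNA of that gene or for RNA of the other strand over its exons, and where a partner overlaps it these sources cannot be told apart. Taking 3 counts as the limit, a count of 0 allows up to 2.98 CPM (gene counts scaled to the library's effective size) in replicate 1 and 2.25 CPM in replicate 2. All intervals and limits cover counting error only.

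Of the 29 members, 8 (27.6%) held at least 10 own counts in each library, against 24.8% of 19817 protein-coding genes. That share lies near the background. The median over all 29 was 2.48 log2 CPM (2.50 and 2.80 in the 2 libraries), against 1.78 over all protein-coding genes. The members are longer than most genes, with a median of 7355 exonic bases against 4232. With levels taken per kb of exon, the median was 0.903 CPM against 0.383 for all protein-coding genes. Both medians rest on few reads, with a median total over both libraries of 10 counts for members and 4 for all protein-coding genes. The background was not limited to genes expressed in HEL cells, so these differences are descriptive only. A small number of genes held most of the reads. ATXN2 alone took 44.7% of the members' own counts, and ATXN2, FXR2, FXR1 and PABPC4 together took 74.7%.

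**Figure D1:**
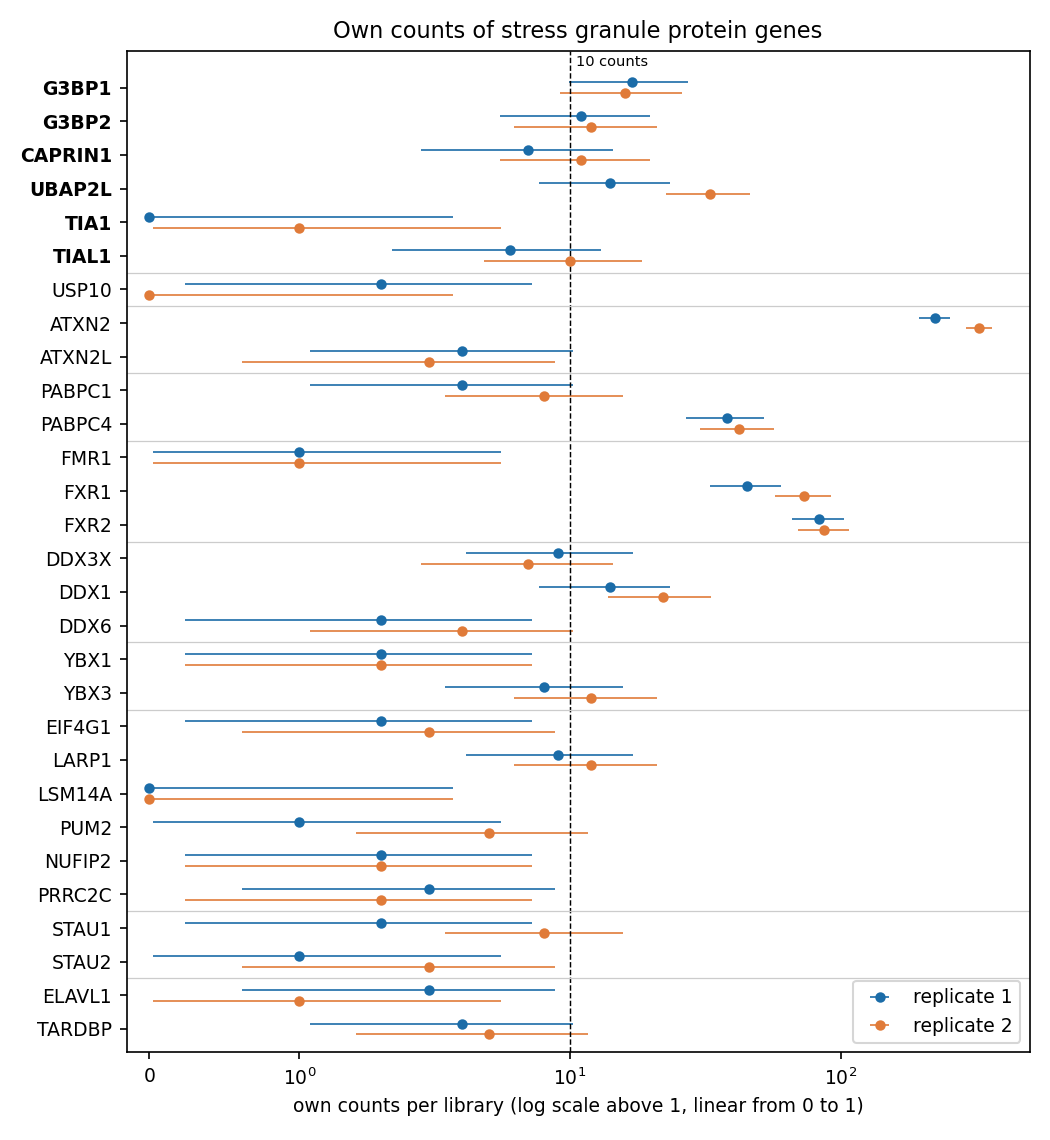
Own counts of each stress granule protein gene in replicate 1 (blue) and replicate 2 (orange), on a horizontal axis that is logarithmic above 1, with exact 95% Poisson intervals; lines separate groups by role and core nucleators are in bold. ATXN2, FXR2, FXR1 and PABPC4 stand to the right at 38 to 326 counts, and most other genes lie at or left of the dashed line at 10 counts.

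The 6 core nucleators held 55 and 83 own counts in all. G3BP1 (chromosome 5, 151771045 to 151812785, plus strand), an RNA-binding protein that switches into a condensing form when mRNA is released, held 17 and 16 counts. G3BP2, its paralog, held 11 and 12. The paralogs had overlapping counting intervals in both libraries, with 95% Poisson limits of 9.90 to 27.2 for G3BP1 and 5.49 to 19.7 for G3BP2 in replicate 1. UBAP2L, a G3BP-binding protein with arginine and glycine repeats, held 14 and 33 counts, the most of the 6 when both libraries are added. CAPRIN1, the G3BP partner that promotes condensation, held 7 and 11.

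The other nucleator pair was lower. TIAL1, also known as TIAR, held 6 and 10 counts. TIA1, its paralog, held 0 and 1, at or under the limit that 3 counts set. TIA1 shares 211 exonic bases with C2orf42 on the same strand. Reads in that stretch could belong to either gene and could have been left out as ambiguous. C2orf42 held 12 and 10 counts over its whole length. USP10, the deubiquitinase that binds G3BP and limits condensation, held 2 and 0.

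Set against the other 23 members, the core nucleators had the higher median and the lower pooled level. Per kb of exon their median was 1.08 CPM against 0.478. On the log2 scale, where a prior count of 2 was added, the difference of medians per kb was 0.77. In the single libraries it was 0.57 in replicate 1 and 0.70 in replicate 2. Without scaling by length the medians were 3.38 and 2.25 log2 CPM, a difference of 1.13 (1.16 in replicate 1 and 0.92 in replicate 2, SD 0.168 over the 2 libraries). With counts and exons summed over genes, the order turned. The core held 1.20 ± 0.112 CPM per kb and the other members 2.49 ± 0.0487, or 1.37 ± 0.0438 without ATXN2. Of the 6 core genes 3 passed the minimum of 10 own counts in both libraries, and of the 23 others 5 did. Per kb of exon no core gene reached the mean level of FXR2, ATXN2, PABPC4 or FXR1. The highest core gene, UBAP2L, stood at 2.58 ± 1.02 CPM per kb, and FXR1, the lowest of those 4, at 4.12 ± 0.594. This is a description over genes, which are not replicates, and no test was made of it.

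Among the other members the ataxin-2 pair spanned most of the range. ATXN2 (chromosome 12, 111443485 to 111599676, minus strand), a poly(A)-binding-protein partner whose polyglutamine expansion causes an ataxia, held 223 and 326 counts, or 233 ± 16.5 CPM (SD, n = 2). Per kb of exon this was 14.1 ± 1.00 CPM. ATXN2L, its paralog (chromosome 16, 28823035 to 28837237, plus strand), held 4 and 3 counts, or 0.478 ± 0.187 CPM per kb. The counting intervals of the 2 paralogs were far apart in each library.

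The FMRP family, translational regulators, showed a similar spread. FXR2 held 83 and 87 counts and, at 17.0 ± 2.79 CPM per kb of exon, the highest level per length of all 29 members. FXR1 held 45 and 73 counts, at 4.12 ± 0.594 CPM per kb. FMR1, the gene silenced in fragile X syndrome, held 1 and 1. The order by length-scaled level was FXR2, FXR1, FMR1 in both libraries. Between FXR2 and ATXN2, the highest pair of all members, the level per kb was 19.0 against 13.4 CPM in replicate 1 and 15.1 against 14.8 CPM in replicate 2. The genes differed less in replicate 2 than FXR2 differed between the libraries.

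The poly(A)-binding proteins also differed from each other. PABPC4 held 38 and 42 counts, at 5.10 ± 0.645 CPM per kb. PABPC1, the main cytoplasmic poly(A)-binding protein, held 4 and 8, at 1.05 ± 0.303 CPM per kb. Of the 13 genes annotated as PABPC1 pseudogenes by name, 9 held 0 counts in both libraries. PABPC1P1, which lies opposite PDS5A, held 20 and 34. Reads that map to several places are outside all these counts, so the level of PABPC1 is uncertain.

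The same limit touches YBX1. This Y-box protein, an abundant packager of mRNA, held 2 and 2 counts, and its relative YBX3 held 8 and 12. Of 10 YBX1 pseudogenes, 5 held 0 counts, and YBX1P4, which overlaps no protein-coding gene, held 35 and 63. Whether reads of YBX1 were assigned to this processed copy cannot be told from gene counts.

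The DEAD-box RNA helicases DDX1, DDX3X and DDX6 held few counts. DDX1 was the highest with 14 and 22, at 3.96 ± 0.483 CPM per kb, and it was one of only 2 members past 10 counts in each library with no exonic base inside an opposite-strand gene. G3BP2 was the other. DDX3X, which unwinds structured 5' leaders, held 9 and 7, and DDX6, a helicase shared with P-bodies, held 2 and 4.

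The 6 translation and mRNP genes held 17 and 24 counts in all, with a median of 0.208 CPM per kb of exon. LARP1, which binds 5' terminal oligopyrimidine mRNAs, held 9 and 12, and the scaffold of the cap-binding complex EIF4G1 held 2 and 3. PUM2, a 3' UTR-binding repressor, held 1 and 5. PRRC2C held 3 and 2, NUFIP2, an FMRP partner, 2 and 2, and LSM14A 0 and 0. None of these 6 reached 10 counts in each library.

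The double-stranded RNA-binding proteins STAU1 and STAU2 held 2 and 8, and 1 and 3 counts. STAU2 shares 302 exonic bases with AC022826.2 on the same strand, a gene with 0 and 0 counts, and reads there could have been left out as ambiguous. ELAVL1, or HuR, which binds AU-rich elements, held 3 and 1. TARDBP, or TDP-43, which binds GU-rich RNA, held 4 and 5. TARDBP shares 1760 exonic bases with AL109811.4 on the same strand, a gene with 0 and 0 counts, so reads over that stretch could have been left out as ambiguous.

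Genes on the other strand of the members were assigned far more reads. The unknown strand setting bears on these genes as well. If reads were tallied on the strand opposite to their RNA, reads on exonic bases inside a member's span would be RNA of that member. The ratios and order of loci below could then turn. Reads on exonic bases outside the span would not be RNA of the member, and at CCDC39 only 134 of 4978 bases lie inside. Which of these cases holds was not tested, and shares by strand over all protein-coding genes are given below. Of the 29 members, 13 had at least 1 gene in the table on the opposite strand with exonic bases inside the member's span, introns included. There were 22 such genes, 7 antisense RNAs, 6 protein-coding genes, 5 pseudogenes, 2 long intergenic RNAs and 2 small structured RNAs. They held 3115 and 4299 counts, against the members' own 517 and 711. A further gene of this kind at FXR1, AC108734.4, had no matching row in the table and was not analysed here. An opposite-strand gene with at least 10 counts in each library was found in 11 of 29 members (37.9%), against 25.9% of all protein-coding genes. The members also have longer spans, with a median of 41.7 kb against 27.1 kb, and a longer span leaves more room for such a gene. The shares are not adjusted for span. Core nucleators gave 1 of these 11 and the other members 10.

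**Figure D2:**
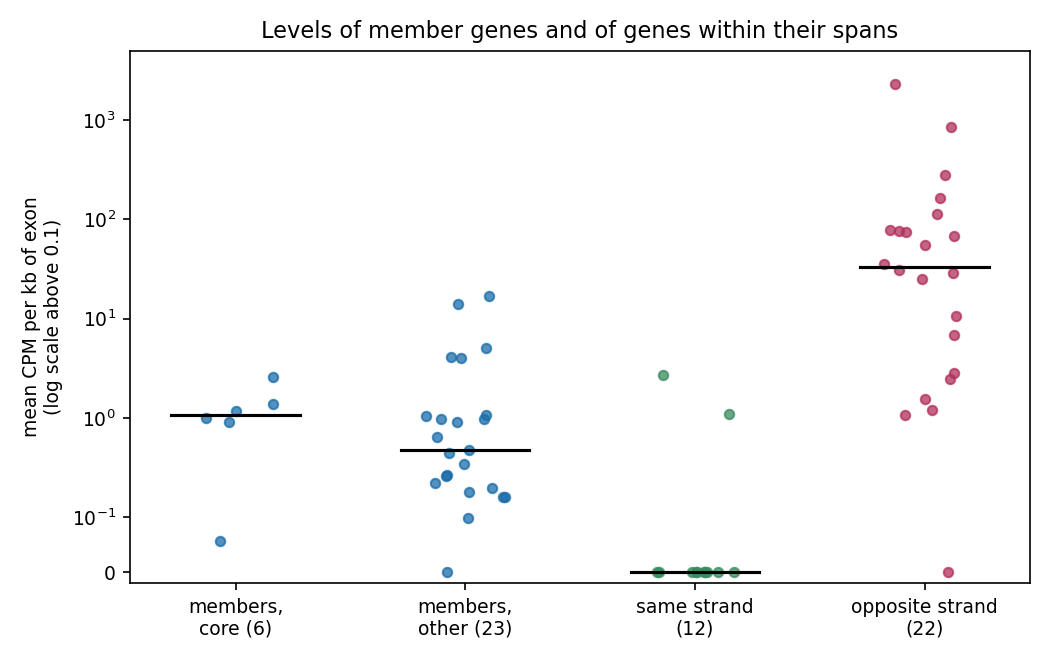
Mean level per kb of exon over the 2 libraries (vertical axis, logarithmic above 0.1 CPM per kb) for core and other members and for genes with exonic bases in the members' spans, by strand; each point is a gene and each bar a median. Opposite-strand genes have a median of 33.2 CPM per kb, while 10 of the 12 same-strand genes lie at 0.

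ATXN2L, with 7 own counts over both libraries, carried the largest opposite-strand signal of any member. The antisense RNA AC133550.1 (chromosome 16, 28830612 to 28837200, minus strand) held 666 and 927 counts on 295 exonic bases, of which 292 lie over ATXN2L exons. Its level was 2298 ± 83.3 CPM per kb of exon. A second antisense RNA, AC145285.6 (chromosome 16, 28822431 to 28823969, minus strand), crosses the start of ATXN2L and held 462 and 529 counts. The ATXN2L splice site printed above ends 82 bases from an AC133550.1 exon. Another ATXN2L 3' splice site lies inside the short exon of AC133550.1, but no transcript ran far enough upstream for its sequence to be read.

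At PABPC4 the antisense RNA AL365277.1 (chromosome 1, 39565067 to 39573203, plus strand) lies whole within it and held 640 and 822 counts, at 850 ± 17.5 CPM per kb, against 5.10 for PABPC4 itself. One of its exons covers the PABPC4 splice site printed above together with 92 bases upstream of it, the pyrimidine run included. Only 246 of its 736 exonic bases lie over PABPC4 exons, and the others face introns.

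**Figure D3:**
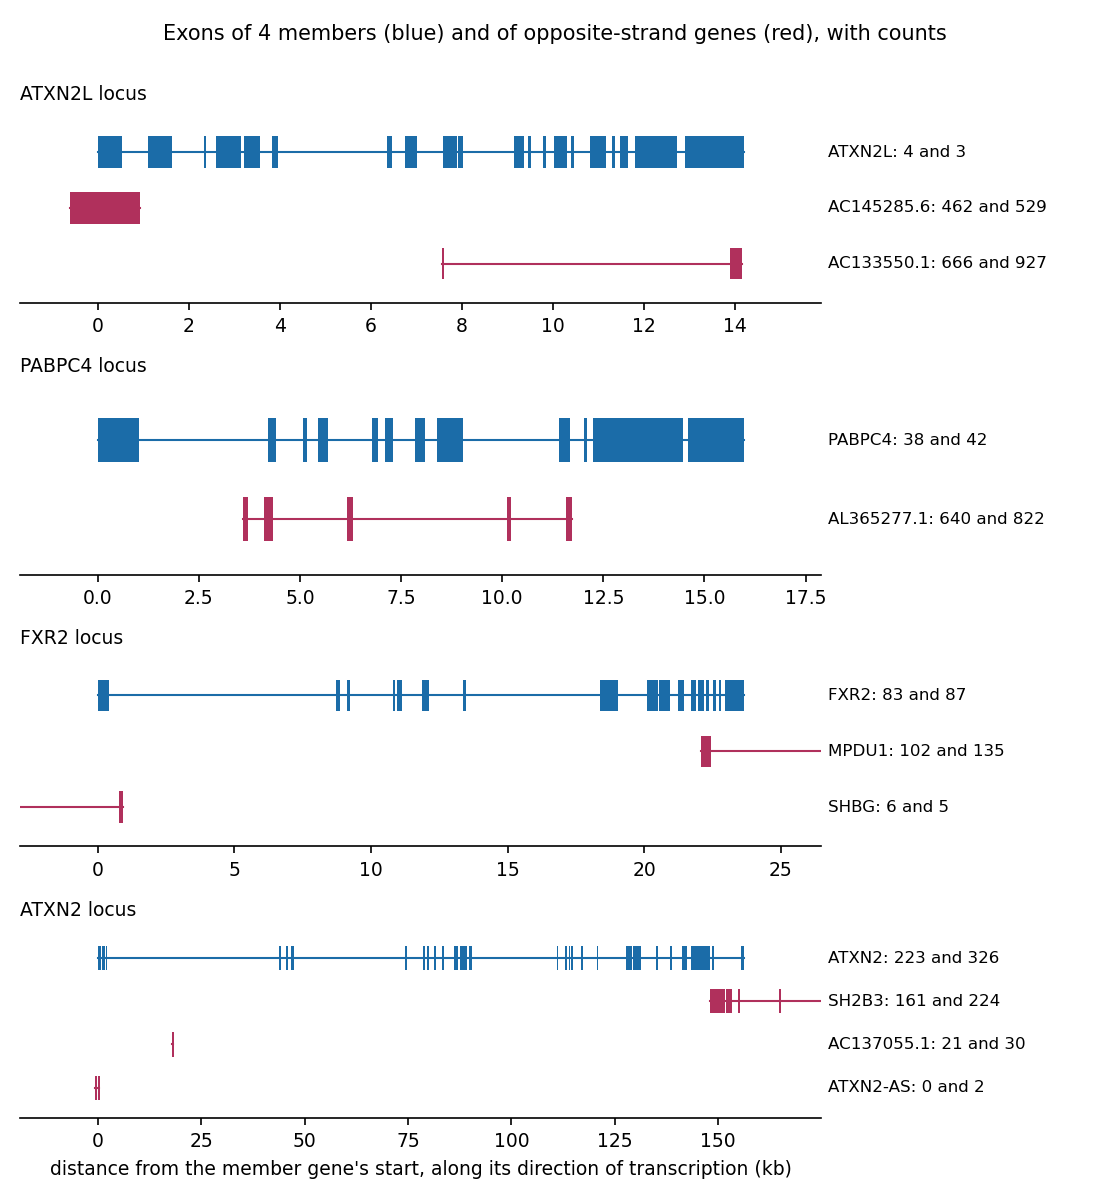
Exons (boxes) of 4 members (blue) and of opposite-strand genes (red) placed by distance in kb from the member's start, with the counts in replicates 1 and 2 at the right. Small exons are widened to a minimum box width and are not to scale, and genes that reach beyond the window are clipped. The ATXN2L and PABPC4 loci hold 4 and 3 and 38 and 42 own counts, against 666 and 927 for AC133550.1 and 640 and 822 for AL365277.1.

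The 2 other loci with a covered splice site involve protein-coding neighbours. SH2B3, an adaptor that restrains JAK2 signalling, overlaps the end of ATXN2 from the other strand and held 161 and 224 counts, with 4427 of its 5682 exonic bases inside the ATXN2 span. The ATXN2 site it covers belongs to a transcript that is not annotated as coding. MPDU1, a dolichol-sugar utilisation gene, overlaps the end of FXR2 tail to tail and held 102 and 135 counts. In both pairs the member and its neighbour were within an order of magnitude of each other per kb of exon, at 14.1 and 28.8 CPM for ATXN2 and SH2B3 and at 17.0 and 31.0 CPM for FXR2 and MPDU1. These pairs hold the members with the highest own levels per kb. An inner pseudogene of ATXN2, AC137055.1, held 21 and 30 counts.

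CCDC39, an axonemal gene expressed in ciliated cells, had the most counts of all opposite-strand genes, with 747 and 1198. Only 134 of its 4978 exonic bases lie in the FXR1 span, and the table does not say where along CCDC39 its reads fell. ATOX1, a copper chaperone gene opposite the start of G3BP1, held 32 and 52 counts with 130 of 5239 exonic bases inside G3BP1. It was the only opposite-strand gene past 10 counts in each library at a core nucleator. C1orf43 at UBAP2L held 5 and 1.

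The remaining opposite-strand genes past 10 counts in each library lay at members with fewer than 10 own counts in at least 1 library. AP002954.1, which overlaps the end of DDX6, held 74 and 101 counts with 51 of 966 exonic bases inside. AC010336.6, whose 528 exonic bases all lie over ELAVL1 exons, held 64 and 76, at 114 ± 8.67 CPM per kb against 0.268 ± 0.226 for ELAVL1. ARPC3P1, a pseudogene in a STAU1 intron, held 32 and 55, and RN7SL15P, in a DDX3X intron, 24 and 29. At STAU2 there were 3, VENTXP6 with 27 and 26, AC027018.1 with 21 and 39 and STAU2-AS1 with 21 and 36. The 7 opposite-strand genes under 10 counts in a library held between 0 and 18 counts over both libraries.

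The contrast by strand was clearest for genes that lie whole within a member, where all exonic bases face it. On the opposite strand 11 such genes held 1504 and 2015 counts, at 311 ± 2.88 CPM per kb of exon pooled. On the same strand 9 such genes held 0 and 1 counts, at 0.215 ± 0.304 CPM per kb. The members' own exons held 2.23 ± 0.0618 CPM per kb. The minimum of 10 counts in both libraries was passed by 8 of the 11 opposite-strand genes and 0 of the 9 same-strand genes, against 31.4% and 2.37% of such genes over all protein-coding genes. The same-strand genes were SNORA58B, SNORA55, SNORD66, MIR7705, FMR1-IT1, AC018620.1, AC008379.1, RF00019 and RF00066, mostly small RNAs, and their exons sum to 1.75 kb against 4.83 kb for the opposite-strand genes. The single count fell on FMR1-IT1.

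Pooled over all 22 genes, opposite-strand exons held 91.2 ± 2.76 CPM per kb, 41.0 times the own level (40.9 in replicate 1 and 41.0 in replicate 2). That ratio was 27.5 without ATXN2L and its opposite-strand genes, 35.4 without CCDC39 and 79.7 without ATXN2 and its opposite-strand genes. The 4 leading genes, CCDC39, AC133550.1, AL365277.1 and AC145285.6, held 80.8% of the opposite-strand counts. The ratio uses the whole count of each gene, including exons outside the member's span.

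Genes whose exons face a member's exons were compared with those that face its introns alone. Over all 22, the 9 with bases over member exons held 116 ± 1.20 CPM per kb pooled and the 13 others 62.3 ± 7.42. Of the 914 and 1431 counts of those 13, CCDC39 held 747 and 1198, with 134 of its 4978 exonic bases in the FXR1 span. Among the genes lying whole within the spans the gap was wider. The 3 genes with bases over member exons, AC133550.1, AL365277.1 and AC010336.6, held 875 ± 4.57 CPM per kb pooled. Of their 1370 and 1825 counts, AC133550.1 held 666 and 927 and AL365277.1 640 and 822, while AC010336.6 stood at 114 CPM per kb. The 8 that lie in introns only held 42.2 ± 2.08 CPM per kb, and the members' own exons 2.23. The 4 opposite-strand genes that cover a 3' splice site of a member held 157 ± 1.77 CPM per kb, and the 18 that cover none 64.4 ± 3.16, a ratio of 2.44. This ratio rested on single genes. It was 1.43 without AC133550.1, 1.58 without AL365277.1 and 4.03 without CCDC39.

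Own counts were also set against this overlap. Of the 10 members with exonic bases inside the span of an opposite-strand gene, 6 held at least 10 own counts in each library, and of the 19 without such bases 2 did. The shares over all protein-coding genes were 42.0% and 12.3%. The 6 were G3BP1, UBAP2L, ATXN2, PABPC4, FXR1 and FXR2, and the 4 others were ATXN2L, DDX6, STAU2 and ELAVL1. The exposed stretch did not order the levels. It was 68.9% of the exonic bases in ATXN2L, which held 4 and 3 counts, 34.6% in FXR2, 30.3% in PABPC4 and 5.76% in ATXN2.

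Each member and opposite-strand gene with at least 10 counts in both libraries was tested between the replicates. Of 23 genes, 1 was called by the exact two-sided binomial test with Benjamini-Hochberg adjustment over 8983 genes, of which 0.501% were called. Over the 8983 genes, 769 had an unadjusted exact p under 0.05. CCDC39 was 1.21-fold higher in replicate 2 by CPM, with an adjusted exact p of 0.0104, and it was not called at total counts without scaling. AC145285.6 had an unadjusted exact p of 0.0247 and an adjusted p of 0.464. Among the 8 members tested, none was called and none had an unadjusted p under 0.05. The lowest was that of UBAP2L, 1.78-fold higher in replicate 2, with an exact p of 0.0768 and an adjusted p of 0.656. Both libraries belong to the same group, so the test speaks of counting error alone, and at these counts it would miss small differences.

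**Figure D4:**
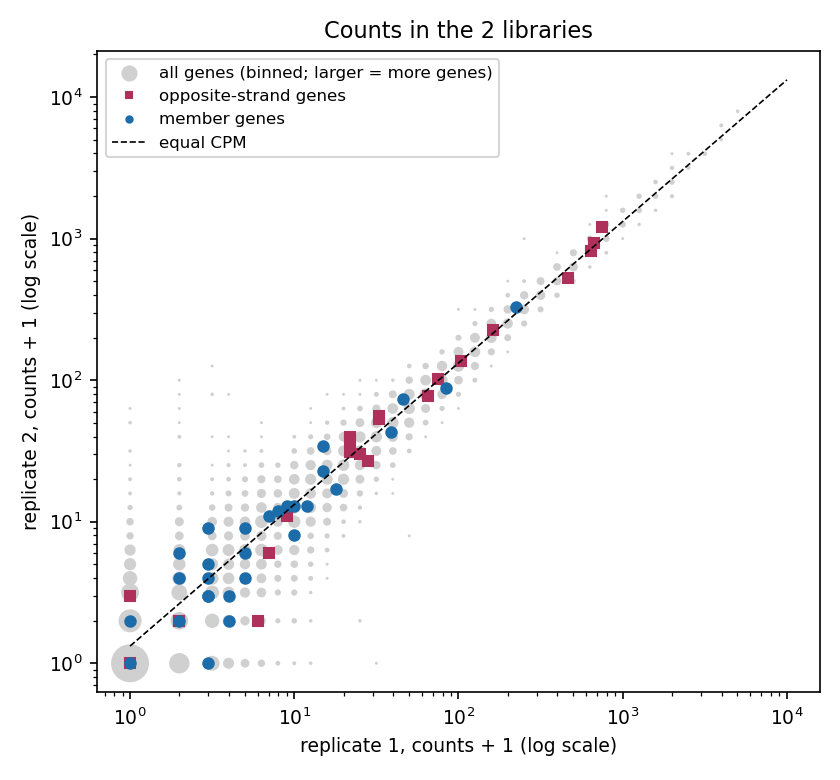
Counts plus 1 in replicate 1 (horizontal) and replicate 2 (vertical), both on log scales, for members (blue), opposite-strand genes (red) and all genes binned on a grid (grey, larger where a bin holds more genes); the dashed line marks equal CPM. CCDC39, at 747 and 1198 counts, is the highest red square and lies above the line.

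Lists of related genes were read in the same way. Of 20 other stress granule proteins, 4 held at least 10 own counts in each library, led by the helicase MOV10 with 42 and 64, HNRNPA1 with 22 and 30 and PRRC2A with 16 and 25. Of 12 P-body proteins, which act in mRNA decapping and decay, 3 did, namely EIF4ENIF1 with 150 and 212, EDC3 with 49 and 71 and AGO2 with 11 and 11. Of 10 genes of the eIF2 stress response, which shuts down initiation upstream of granule assembly, 6 did. They were led by DDIT3 with 97 and 115, the kinase gene EIF2AK1 with 71 and 84 and the phosphatase subunit gene PPP1R15B with 44 and 38. The background share for all 3 lists is the 24.8% given above. DDIT3 lies opposite MARS, with 380 and 555 counts, and EIF2AK1 opposite ANKRD61, with 206 and 359.

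Markers of the cell line gave few reads in these counts. Among the erythroid markers TAL1 held 22 and 28, while KLF1 held 0 and 4 and HBG1 0 and 1. Of 4 megakaryocyte markers NFE2 held 12 and 25, ITGA2B 0 and 2, GP9 0 and 1 and PF4 0 and 0. The monocyte markers CD14 and SPI1 were at 0 in both libraries. The T cell markers CD3E and CD3D held 1 count in all. Counts of RNA recovered with U2AF2 do not test the identity of the line.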

How the data were processed

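The authors deposited whole-number gene counts, not normalized, for 2 libraries. Their tallies of unassigned reads were left out of the gene counts and library sizes and served only for the share of reads on no feature. The tools were cutadapt and STAR 2.7.0f with GRCh38.p10, per the submitters' processing notes. The strand setting, the annotation behind the counts and the handling of PCR duplicates are not given in the sources used here. Any duplicates that remained would narrow the counting intervals.

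Of 58347 genes, 58084 matched GENCODE 29 by identifier without version. Library sizes were scaled by TMM in edgeR 4.0.16 (R 4.3.3) over genes past a minimum of 10 counts in both libraries, with factors of 1.01 and 0.987. A prior count of 2 was added for log2 CPM. Single genes and pools were compared per kb of merged exon, and medians of gene lists are given with and without this scaling. A neighbour counted for a member when any of its exonic bases lay within the member's span. Sequences were read from GENCODE 29 transcripts, reversed and complemented where the transcript lay on the other strand. None is shown from chromosome 8. The replicate test was an exact binomial test in scipy 1.17.1 under Python 3.11.15. It was checked on simulated Poisson counts, the model it assumes, so the check does not cover spread beyond counting error. With 1 group, the quasi-likelihood test of edgeR had no contrast.

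All 29 members, the opposite-strand and pseudogene neighbours with at least 10 counts in each library and the 3 leading genes of each related list were named by rule, and other genes were named after their values were seen. Some genes of the marker and related lists are not reported here. Members and lists were chosen with earlier results of these data known. The labels call the samples biological replicates. DESeq2 1.42.0 size factors, other count minimums, prior counts, overlap rules and core lists were tried as alternatives. Settings that leave out single loci and pooled levels of core and other members were added after seeing the data.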

Additional observations from a re-analysis of the deposited data

How the results depend on the processing

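Of 43 alternative values, 2 turned the direction of the main value and 22 moved by more than the spread between the libraries or, for counts of genes, by more than 1.5 times. Members with at least 10 own counts in each library were 8, against 13 at a minimum of 5 and 4 at a minimum of 20. They were 8 to 12 when a single library was used. The members' median of 2.48 log2 CPM was 2.10 with a prior count of 0.5, 4.76 over the members past the minimum and 2.50 to 2.80 in single libraries. The core difference of 1.13 was 1.41 with a prior count of 0.5, 0.89 for a core of G3BP1, G3BP2, TIA1 and TIAL1, 0.77 per kb of exon and 0.92 to 1.16 in single libraries. It turned to -1.06 with counts pooled per kb of exon and to -0.19 so pooled without ATXN2. Members with a counted opposite-strand gene fell from 11 to 7 when the gene had to lie over the member's exons, and to 7 when it had to lie whole within the span. The opposite-to-own ratio of 41.0 was 140 (139.9) for genes whole within the span, 36.8 for medians over genes, 27.5 without ATXN2L and its antisense RNAs, 35.4 without CCDC39, 79.7 without the ATXN2 locus and 40.9 to 41.0 in single libraries. The splice site ratio of 2.44 was 14.6 for medians over genes, 5.66 with sites of coding transcripts only, 4.03 without CCDC39, 1.43 without AC133550.1, 1.58 without AL365277.1 and 2.38 to 2.51 in single libraries. Replicate calls were 1, and 0 at total counts without scaling. Where the alternative did not itself remove genes or libraries, the cause was not tested. No paired analysis was possible because there is 1 group. Own counts under 10 limit every statement on single members other than the 8 past that minimum.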

Other observations

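Some genes of the related lists also held far fewer counts than a gene on their other strand. They were chosen after their values were seen. EIF4B, an initiation factor that assists unwinding, held 9 and 11 own counts, and AC068888.1 on its other strand 1794 and 2588. HNRNPA2B1, an hnRNP that binds and transports mRNA, held 7 and 17, and NFE2L3 opposite it 1345 and 1939. EDC3, a decapping scaffold, held 49 and 71, and the splicing kinase gene CLK3 opposite it 2120 and 2928. The values for AC068888.1, NFE2L3 and CLK3 are whole-gene counts and can include exons outside the span of the listed gene. How much of each lies inside that span is not given here, so a likeness to the ATXN2L and PABPC4 loci was not tested. A gene with at least 10 counts in each library on the other strand was found for 11 of the 20 other stress granule proteins, 9 of the 12 P-body proteins and 5 of the 10 eIF2 stress response genes, against 25.9% of all protein-coding genes. These shares are not adjusted for span either.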
